A study of Mus musculus with 9 samples.

Results

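Adherens and tight junctions hold the lining of blood vessels together, and 10 of their genes were compared between lung endothelial cells of Tie1-WT and Tie1-CR mice. The genes were Cdh5, Cldn5, Esam, Pecam1, Ctnnb1, Jup, Tjp1, Ocln, F11r and Jam2, chosen by symbol. All 10 were present among the 9277 genes of the deposited table, and each exceeded the filter on low values. Tie1-WT is the wild type receptor (4 libraries) and Tie1-CR is a form of Tie1 that resists proteolytic cleavage during inflammation (5 libraries). Every library name carries PBS, so both genotypes share that treatment, and no inflammatory stimulus was analysed here. The sources used here do not state the strain, age or sex of the mice, how the allele was made or how the cells were isolated. Nor do they tie each library to its own mouse, and the p-values thus reflect only the spread over these libraries, which may be technical. Values are CPM, the reads of a gene scaled to the total of its library, and differences are Tie1-CR minus Tie1-WT on the scale of log2(CPM + 1).

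Adherens junctions join neighbouring endothelial cells through VE-cadherin, whose cytoplasmic tail binds beta-catenin or plakoglobin and so links the junction to actin. Tight junctions seal the space between cells through claudins, occludin and the junctional adhesion molecules, which ZO proteins tie to the cytoskeleton. Pecam1 and Esam are immunoglobulin family adhesion molecules of the same contacts. In the lung these contacts limit the leak of plasma and the passage of leukocytes, and Tie receptor signalling is known for its part in keeping them closed.

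None of the 10 genes passed the test between genotypes (limma across all genes, Benjamini-Hochberg adjusted p below 0.05), where 4.05% of all genes did (1.28% higher and 2.77% lower in Tie1-CR). Their differences ran from -0.16 log2 for Ctnnb1 to 0.17 log2 for Jam2. All 10 intervals of the difference (95%, limma) lay within 1.5-fold, the farthest bounds being 1.25-fold higher for Jup and 0.815-fold for Ctnnb1. The 8 genes above 0 were Cdh5, Cldn5, Esam, Pecam1, Jup, Ocln, F11r and Jam2, and the 2 below 0 were Ctnnb1 and Tjp1. The median difference was 0.07 log2, beside -0.03 over all genes, of which 41.5% lay above 0. At an unadjusted p below 0.05 there were 2 of 10 (20%), Ctnnb1 and Jam2, beside 22.3% of all genes. In 0 of the 10 genes were the groups free of overlap, which was the case for 10.5% of all genes. In bulk libraries, a change in the number of cells of a type and a change in RNA per cell cannot be told apart.

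**Figure D1:**
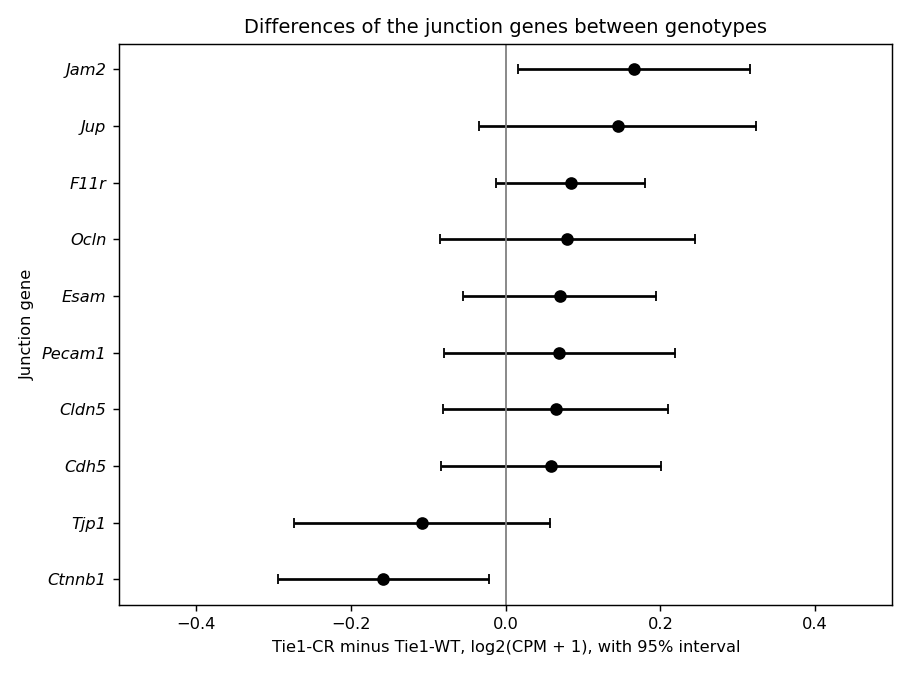
Difference of each junction gene between genotypes on the log2(CPM + 1) scale (x axis), with its 95% interval from limma, genes ordered by size (y axis). Ctnnb1 lies lowest at -0.16 and Jam2 highest at 0.17, and 8 of the 10 intervals hold 0.

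Depth was 38208696 to 54408116 reads per library, inferred from the steps in the values, and the 10 genes together took 11600 to 12500 CPM in Tie1-WT and 12200 to 13100 CPM in Tie1-CR. The labelled cell type was checked on 10 other endothelial markers, among them Tek, Kdr and Eng, all of which were measured, at a summed 13000 to 14800 CPM in Tie1-WT and 15100 to 16200 CPM in Tie1-CR. Of these 10, 8 lay above 0, with a median of 0.16 log2. An unadjusted p below 0.05 was found for 6 (60%, beside 22.3% of all genes), and groups without overlap for 4 (beside 10.5%). Tie1 itself measured 2136 ± 42.9 and 2433 ± 143 CPM (0.19 log2, limma adjusted p = 0.107). The test was passed by 1, the transcription factor gene Erg, beside 4.05% of all genes. Erg fell from 50.3 ± 3.61 to 37.5 ± 1.77 CPM (-0.41 log2, limma adjusted p = 0.00516). Of 16 epithelial markers, 9 were measured, summing to 131 to 497 CPM in Tie1-WT and 339 to 694 CPM in Tie1-CR. Of these 9, 8 lay above 0, with a median of 0.96 log2, and 7 (77.8%) had an unadjusted p below 0.05, beside 22.3% of all genes. The test was passed by 3, all higher (Sftpd, Cyp2f2 and Cbr2, limma), beside 1.28% of all genes. Scgb1a1 differed by 0.04 log2 (limma adjusted p = 0.966). The 1 marker below 0 was Cldn18 (-0.42 log2, limma adjusted p = 0.453), which is also in the tight junction list used below. Epcam, Krt8, Krt18 and Nkx2-1 were not in the table, whose genes each reach at least 10.01 CPM in some library. Of 9 leukocyte markers, 2 were measured, summing to 30.6 to 76.9 CPM and 60.2 to 118 CPM, and they went opposite ways. Cd68 fell from 10.7 to 5.30 CPM (limma adjusted p = 0.0064). Lyz2, most of the sum, measured 37.8 and 76.2 CPM (1.11 log2, limma adjusted p = 0.0669). Like the epithelial marker Sftpc, Lyz2 was lowest in Tie1-WT replicate 1 and highest in Tie1-CR replicate 5. Ptprc was not in the table. The 3 measured of 7 platelet markers summed to 24.3 to 90.9 CPM and 62.4 to 89.7 CPM. The 5 measured of 8 mesenchymal markers summed to 36.5 to 101 CPM and 25.7 to 108 CPM. The 3 measured of 5 type 1 pneumocyte markers summed to 170 to 289 CPM and 158 to 235 CPM, most of it Hopx (means 179 and 160 CPM). All 3 lay below 0, with a median of -0.25 log2, and 0 passed the test. The 3 measured of 5 lymphatic endothelial markers summed to 1050 to 1640 CPM and 1160 to 1500 CPM. Most of that lymphatic sum was Lyve1 (means 1028 and 988 CPM), Reln measured 9.40 and 11.3 CPM, and Prox1 and Ccl21a were not in the table.

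Cdh5 encodes VE-cadherin, the adhesive receptor of endothelial adherens junctions, and lies on chromosome 8 from 104101625 to 104144511 (GRCm38, GENCODE M21, as for all positions here). Its level was 1497, 1443, 1421 and 1639 CPM in Tie1-WT replicates 1 to 4 and 1608, 1509, 1584, 1658 and 1447 CPM in Tie1-CR replicates 1 to 5. The groups overlapped over most of their range, with 1 Tie1-WT library above 4 of the Tie1-CR libraries. The means were 1500.2 ± 97.8 CPM (SD, n = 4) and 1561 ± 83.7 CPM (SD, n = 5), a difference of 0.06 log2 (95% interval -0.08 to 0.20, limma adjusted p = 0.627). Leaving out Tie1-WT replicate 3 gave 0.03 log2, and leaving out replicate 4 gave 0.10 (Tie1-WT) or 0.04 (Tie1-CR). Quantile normalization gave 0.11 log2. Over the 9 libraries, the genes closest to Cdh5 by root mean square difference of centred log2 values were Nrp1, Coro1b, Hfe, App and Tspan3, at 0.0360 to 0.0409 log2, against a median of 0.138 over all other genes. Pecam1 was the nearest of the other 9 junction genes, at 0.0488, while Ctnnb1 (0.17), Jam2 (0.165) and Tjp1 (0.14) lay farther than that median.

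Ctnnb1 encodes beta-catenin, which binds the VE-cadherin tail and also acts with TCF factors in Wnt signalling, and lies on chromosome 9 from 120929216 to 120960507. It measured 469.8, 503, 485 and 465 CPM in Tie1-WT and 439, 393, 456, 401 and 469 CPM in Tie1-CR. The 4 lowest libraries were all Tie1-CR, and Tie1-CR replicate 5 lay above Tie1-WT replicate 4. The means were 481 ± 17.2 CPM (SD, n = 4) and 432 ± 33.4 CPM (SD, n = 5), a difference of -0.16 log2 (95% interval -0.29 to -0.02) that did not pass after adjustment (limma adjusted p = 0.160).

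Jup encodes plakoglobin, a relative of beta-catenin that binds the same cadherin tail and also serves desmosomes, on chromosome 11 from 100368958 to 100397763. Its level was 1784, 2104, 1632 and 1872 CPM in Tie1-WT and 2180, 2059, 1906, 2154 and 1893 CPM in Tie1-CR. All Tie1-CR libraries lay above 3 of the 4 Tie1-WT libraries, while Tie1-WT replicate 2 lay above 3 Tie1-CR libraries. The means were 1848 ± 197 CPM (SD, n = 4) and 2038 ± 135 CPM (SD, n = 5), a difference of 0.14 log2 with the widest interval of the 10 genes (95% interval -0.03 to 0.32, limma adjusted p = 0.318). Without Tie1-WT replicate 3 it was 0.09 log2.

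Pecam1 encodes CD31, an adhesion molecule of endothelial contacts that leukocytes and platelets also carry, on chromosome 11 from 106654217 to 106750628. Levels were 2668, 2356, 2489 and 2855 CPM in Tie1-WT and 2754, 2699, 2761, 2729 and 2621 CPM in Tie1-CR. The Tie1-WT libraries spread on both sides of the 5 Tie1-CR libraries, which lay close together. The difference was 0.07 log2 (95% interval -0.08 to 0.22, limma adjusted p = 0.578). With Tie1-WT replicate 2 or 4 left out it was 0.02 or 0.12 log2, and with quantile normalization 0.03.

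Esam, an endothelial adhesion molecule also found on platelets, lies on chromosome 9 from 37528078 to 37538319. It measured 1402, 1363, 1379 and 1464 CPM in Tie1-WT and 1578, 1396, 1430, 1442 and 1517 CPM in Tie1-CR. The 2 highest libraries were Tie1-CR replicates 1 and 5, and the others interleaved. The difference was 0.07 log2 (95% interval -0.06 to 0.19, limma adjusted p = 0.496), and 0.04 log2 without Tie1-CR replicate 1.

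**Figure D2:**
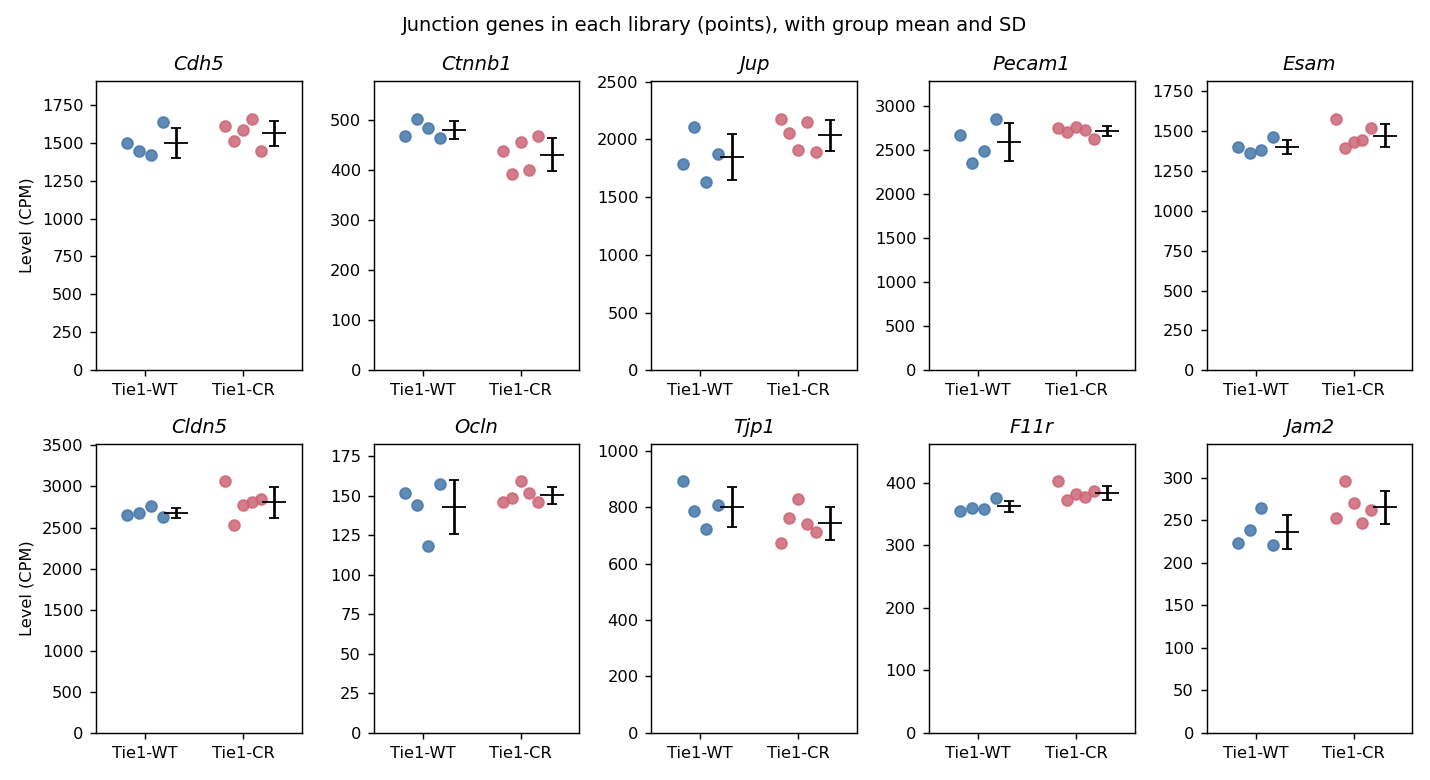
Level of each junction gene in CPM (y axis, from 0) in every library, Tie1-WT in blue (4 points) and Tie1-CR in red (5 points), with the group mean and SD in black. Points of the genotypes overlap in all 10 panels, and the single low Ocln point is Tie1-WT replicate 3 at 118 CPM.

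Cldn5 encodes claudin-5, the main claudin of endothelial tight junctions, on chromosome 16 from 18776847 to 18778262. Levels were 2649, 2679, 2758 and 2629 CPM in Tie1-WT and 3061, 2536, 2771, 2815 and 2844 CPM in Tie1-CR. In Tie1-CR, 4 libraries lay above all Tie1-WT libraries and replicate 2 lay below all of them. The means were 2679 ± 56.6 CPM (SD, n = 4) and 2806 ± 188 CPM (SD, n = 5), a difference of 0.06 log2 (95% interval -0.08 to 0.21, limma adjusted p = 0.597). It was 0.03 log2 without Tie1-CR replicate 1, 0.10 without Tie1-CR replicate 2 and 0.04 with quantile normalization.

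Ocln encodes occludin, a tight junction membrane protein that epithelium carries as well, on chromosome 13 from 100496507 to 100552718. It measured 152, 144, 118 and 157 CPM in Tie1-WT and 146, 148, 159, 152 and 146 CPM in Tie1-CR. The Tie1-CR libraries lay close together, and Tie1-WT replicate 3 lay apart at the bottom. The difference was 0.08 log2 (95% interval -0.09 to 0.24, limma adjusted p = 0.562), with -0.01 or 0.13 log2 when Tie1-WT replicate 3 or 4 was left out.

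Tjp1 encodes ZO-1, the scaffold that ties tight junction proteins to actin, on chromosome 7 from 65296165 to 65527781. Levels were 891, 785, 721 and 807 CPM in Tie1-WT and 672, 761, 830.3, 740.0 and 711 CPM in Tie1-CR. The lowest 2 libraries were Tie1-CR and the highest was Tie1-WT, with the others mixed. The difference was -0.11 log2 (95% interval -0.27 to 0.06, limma adjusted p = 0.420), and -0.06 log2 without Tie1-WT replicate 1.

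F11r encodes JAM-A, a junctional adhesion molecule that epithelium and platelets carry as well, on chromosome 1 from 171437535 to 171464603. Its level was 355, 359, 358 and 376 CPM in Tie1-WT and 402, 373, 382, 376 and 386 CPM in Tie1-CR. Each Tie1-CR library lay above 3 of the Tie1-WT libraries, and Tie1-WT replicate 4 lay among the lower Tie1-CR libraries. The means were 362 ± 9.36 CPM (SD, n = 4) and 384 ± 11.3 CPM (SD, n = 5), a difference of 0.08 log2 with the narrowest interval of the 10 genes (95% interval -0.01 to 0.18, limma adjusted p = 0.283). With the epithelial marker level as a covariate the difference was 0.06 log2 for F11r and 0.04 log2 for Ocln. Esam (0.0539), Jup (0.133) and Tjp1 (-0.0853) also moved toward 0 in that fit. Cdh5 (0.0609), Cldn5 (0.0741), Pecam1 (0.0757), Ctnnb1 (-0.22) and Jam2 (0.177) moved away from 0, and the cause was not tested.

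Jam2 encodes JAM-B, a junctional adhesion molecule of vascular endothelium, on chromosome 16 from 84774123 to 84825928. It measured 224, 239, 264 and 221 CPM in Tie1-WT and 253, 296, 271, 247 and 262 CPM in Tie1-CR. Each Tie1-CR library lay above 3 of the 4 Tie1-WT libraries, and Tie1-WT replicate 3 lay above 3 Tie1-CR libraries. The means were 237 ± 19.9 CPM (SD, n = 4) and 266 ± 19.2 CPM (SD, n = 5), the highest of the 10 differences at 0.17 log2 (95% interval 0.02 to 0.32), which did not pass after adjustment (limma adjusted p = 0.182).

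The fewest reads of any of the 10 genes in a library were 5673, for Ocln, a counting error of 1.33% if reads are independent. Ocln varied by 12.0% between Tie1-WT libraries and by 3.63% between Tie1-CR libraries (coefficient of variation). Copies from cDNA amplification would make the counting error larger. The within-genotype SD was lowest for F11r (0.04 log2) and highest for Ocln (0.12 log2), with a median of 0.0877 log2 over the 10 genes and 0.103 log2 over all genes. Tie1-CR replicate 1 was the highest library for 4 of the 10 genes, and Tie1-WT replicate 3 the lowest for 3 (Cdh5, Jup and Ocln).

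Levels of different genes were compared per kilobase of merged exons (GENCODE M21 basic set). Cldn5 was highest, at 1892 ± 40.0 CPM per kb in Tie1-WT (SD, n = 4) and 1981 ± 132 CPM per kb in Tie1-CR (SD, n = 5). Esam followed at 752 ± 23.9 and 789 ± 39.5 CPM per kb, then Pecam1 at 627 ± 52.5 and 656 ± 13.8, Jup at 574 ± 61.3 and 633 ± 41.8, and Cdh5 at 376 ± 24.5 and 391 ± 20.9. A gap separated these from F11r (144 ± 3.72 and 152 ± 4.49 CPM per kb), Ctnnb1 (133 ± 4.74 and 119 ± 9.21) and Tjp1 (113 ± 9.86 and 105 ± 8.32). Jam2 (39.2 ± 3.30 and 44.0 ± 3.18 CPM per kb) and Ocln (33.8 ± 4.07 and 35.6 ± 1.29) were lowest. Neighbours in this order overlapped over the 9 libraries for Pecam1 and Jup (Pecam1 higher in 6 of 9 libraries), for Ctnnb1 and Tjp1 (9 of 9) and for Jam2 and Ocln (8 of 9), while the other neighbours did not overlap. The order depends on the exon models used, which may differ from those the authors counted on.

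**Figure D3:**
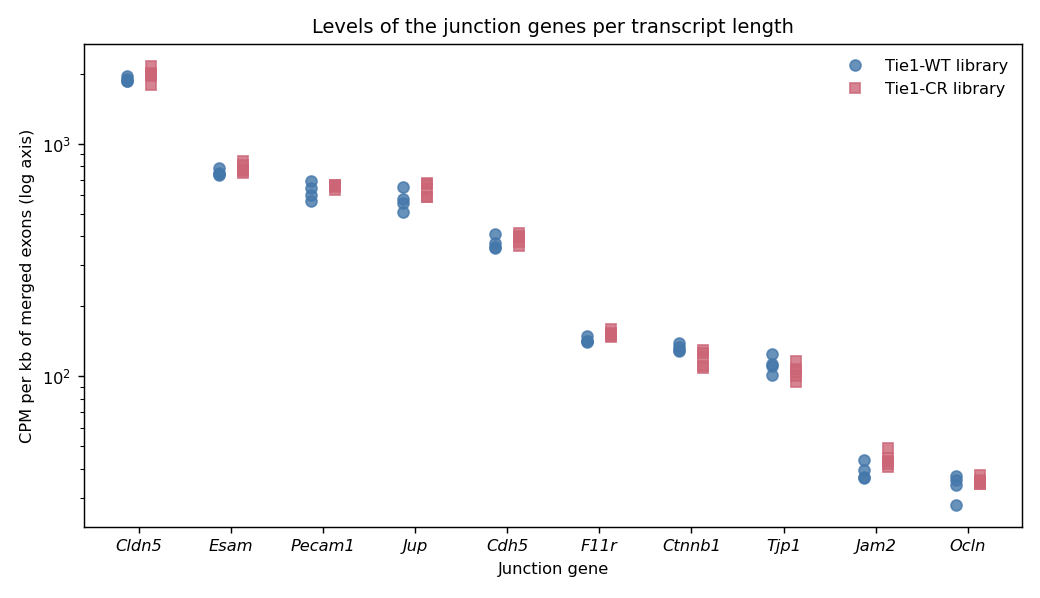
Level of each junction gene in CPM per kb of merged exons (y axis, log scale), ordered from highest to lowest (x axis), Tie1-WT libraries as blue circles and Tie1-CR libraries as red squares. Cldn5 stands above all others near 1892 CPM per kb in Tie1-WT, and Jam2 and Ocln lie lowest.

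The sequences upstream of the start sites of Cldn5, the gene with the highest level per length, and of the catenin relatives Jup and Ctnnb1, whose differences had opposite signs, are shown for context (RefSeq, GRCm38.p6, the 250 bases before the start, 5′ to 3′ on the strand of the gene). They are chr16:18776597-18776846 on the plus strand for Cldn5, chr11:100397791-100398040 on the minus strand for Jup, and chr9:120933150-120933399 on the plus strand for Ctnnb1, the upstream entry of 2. The RefSeq start behind the Ctnnb1 window lies 4184 bases inside the gene as GENCODE places it. Capitals mark GGAA on either strand (TTCC), the core that ETS factors bind.
Cldn5: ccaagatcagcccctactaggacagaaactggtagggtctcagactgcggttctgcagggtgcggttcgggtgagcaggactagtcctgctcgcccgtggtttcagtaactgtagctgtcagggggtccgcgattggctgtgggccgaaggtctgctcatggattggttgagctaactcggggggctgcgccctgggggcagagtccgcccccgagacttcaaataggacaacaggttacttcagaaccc
Jup: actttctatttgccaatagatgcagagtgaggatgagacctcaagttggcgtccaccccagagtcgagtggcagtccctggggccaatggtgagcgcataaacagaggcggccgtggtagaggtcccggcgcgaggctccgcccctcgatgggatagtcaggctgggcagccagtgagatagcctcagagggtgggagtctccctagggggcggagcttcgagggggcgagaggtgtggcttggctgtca
Ctnnb1: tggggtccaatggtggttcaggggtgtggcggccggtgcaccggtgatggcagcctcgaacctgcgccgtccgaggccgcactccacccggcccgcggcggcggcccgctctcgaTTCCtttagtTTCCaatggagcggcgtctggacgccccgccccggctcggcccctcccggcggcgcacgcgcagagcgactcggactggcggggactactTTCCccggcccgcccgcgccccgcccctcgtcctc
GGAA occurred 0 times in the Cldn5 and Jup windows and 3 times in that of Ctnnb1. Of 32851 windows of this length before RefSeq start sites, 93.4% held GGAA on either strand, with a median of 3 matches. The RefSeq table held 6 of the 10 genes, Cldn5, Ctnnb1, Jup, Tjp1, Ocln and F11r, of which 4 had GGAA. Besides Ctnnb1 these were Tjp1 (3 matches), whose difference was also below 0, and Ocln (2) and F11r (3), whose differences were above 0. Any link between the matches and the differences was not tested. The Tjp1 window belongs to a start 156537 bases inside the GENCODE gene. CTTTG, the core that TCF factors bind, was in 0 of the 6 windows on either strand and in 48.6% of all windows. The table has no entry for Cdh5, Pecam1, Esam and Jam2.

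Other genes came from lists for the same junctions, 28 adherens junction genes and 31 tight junction genes, of which 23 and 17 were measured. Whether the protein of each listed gene sits in these junctions was not checked. Among the adherens junction genes 0 passed in the limma fit and 4 of 23 (17.4%) had an unadjusted p below 0.05, beside 4.05% and 22.3% of all genes. They lay on both sides of 0, with 12 above, 11 below and a median of 0.01 log2. The highest of them were Rasip1, which endothelial cells need to form vessel lumens, at 1001 ± 44.9 CPM (SD, n = 4) and 1063 ± 47.5 CPM (SD, n = 5), and the adhesion molecule Icam2, at 963 ± 80.4 and 1039.9 ± 122 CPM. Those with the smallest p were T-cadherin (Cdh13), at 41.7 ± 3.94 and 49.1 ± 4.45 CPM (0.23 log2, limma adjusted p = 0.109), and vezatin (Vezt), a transmembrane partner of the cadherin complex, at 36.7 ± 1.25 and 32.4 ± 2.54 CPM (-0.18 log2, limma adjusted p = 0.118).

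Of the 17 measured genes of the tight junction list 1 rose and 0 fell, beside 1.28% of all genes higher and 2.77% lower. Above 0 there were 4 (23.5%, beside 41.5% of all genes) and below it 13, with a median of -0.07 log2, and 2 (11.8%) had an unadjusted p below 0.05, beside 22.3% of all genes. Marveld2 and Marveld3, also listed, were not in the table. The gene that rose was Marveld1, whose place in tight junctions was not examined. It encodes a membrane protein that shares the MARVEL domain of occludin, on chromosome 19 from 42147400 to 42151703. It measured 448, 503, 417 and 446 CPM in Tie1-WT and 580.1, 571, 589, 502 and 566 CPM in Tie1-CR. In Tie1-CR 4 libraries lay above every Tie1-WT library, and replicate 4 lay just below Tie1-WT replicate 2. The means were 454 ± 35.9 CPM (SD, n = 4) and 562 ± 34.4 CPM (SD, n = 5), a difference of 0.31 log2 (1.24-fold, SE 0.07 log2, limma adjusted p = 0.0290). Marveld1 lost this call with the epithelial marker level as a covariate (0.26 log2, limma adjusted p = 0.306), a fit in which 17 genes passed in place of 376, and the summed epithelial markers were 131 to 497 CPM in Tie1-WT and 339 to 694 CPM in Tie1-CR. The call also ended, at 0.270 to 0.305 log2, without Tie1-WT replicate 1 (limma adjusted p = 0.105), 3 (0.0761) or 4 (0.0555) and without Tie1-CR replicate 1 (0.0505), 3 (0.0574) or 5 (0.0560).

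**Figure D4:**
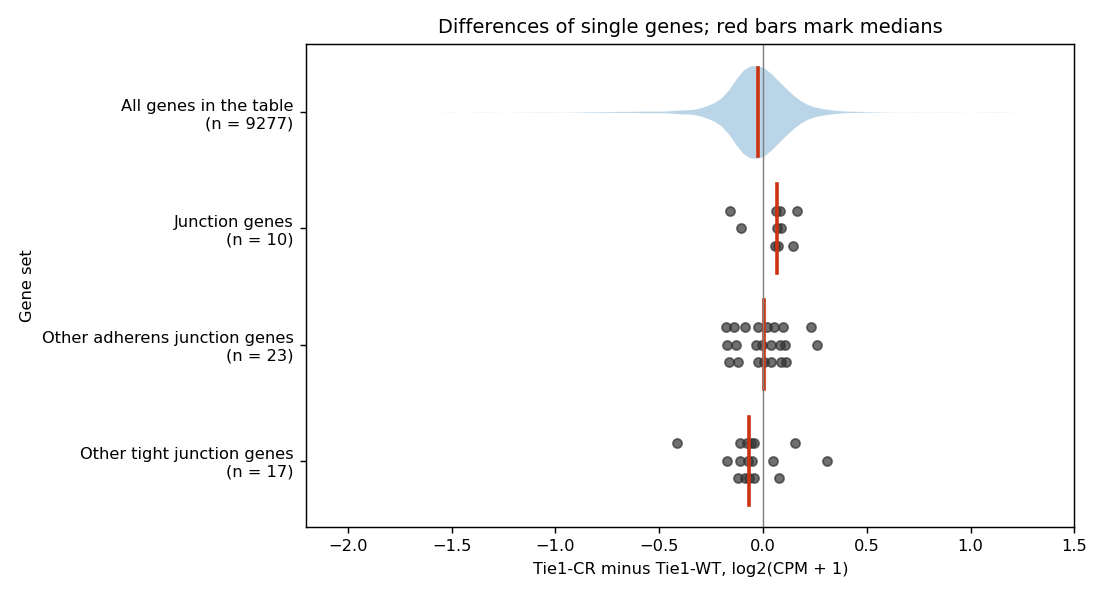
Difference between genotypes on the log2(CPM + 1) scale (x axis) for all 9277 genes (shaded density), the 10 junction genes, the 23 other adherens junction genes and the 17 other tight junction genes (points, spread vertically for legibility), with medians as red bars. The medians are -0.03, 0.07, 0.01 and -0.07, and the 10 junction genes lie inside the bulk of all genes.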

How the data were processed

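The authors deposited 1 expression table under the name TPM. The deposited values were treated as CPM that the authors made by dividing reads by library totals, because 100% of them in every library are multiples of 1 smallest step, to within 0.01 reads, and 98.3% to 98.6% of the reads so implied are in the table. RNA came from a PicoPure extraction and SMARTer Ultra Low libraries, which amplify cDNA, per the labels' protocols. Alignment used STAR 2.7 on GRCm38.p6 (mm10), per the submitters' processing notes. How reads were counted, whether strand was used, and which annotation and gene filter applied is not given in the sources used here. CPM is not normalized for length. Test design was written for a normalized table and kept for CPM.

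Values were used as log2(CPM + 1), which slightly understates changes of low genes, keeping genes that reach 1 CPM in 4 or more libraries (0 were dropped). The test on all 9277 genes was two-sided, by limma 3.58.1 in R 4.3.3 with a trended prior, adjusted by Benjamini-Hochberg, threshold 0.05, with no covariate. The fit was tested on simulated data. The members, the lists and the tests were chosen with earlier results of these data known. All 10 members are named, with each gene of the other junction lists past the threshold or, where there was none, the 2 highest and the 2 with the smallest p, and the 5 genes nearest to Cdh5. Marker lists were described by counts and sums. Lengths and positions came from GENCODE M21, in which no exon of the 10 genes overlaps an exon of another gene. Alternatives covered the pseudocount, the filter, TMM and quantile scaling, robust empirical Bayes, a replicate block, an epithelial covariate and each library left out. Plots used matplotlib 3.10.9 in Python 3.11.15.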

Additional observations from a re-analysis of the deposited data

Results flagged for a closer look

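In 5 of the 30 groups of libraries examined for the named genes, a single library lay farther from the others than Dixon's 95% critical value allows. Chance flags about 1 in 20 such groups. Only F11r among the flagged genes is one of the 10 junction genes, and the rest were named from the other junction lists. F11r was 375.9 CPM in Tie1-WT replicate 4, above the other 3 Tie1-WT libraries. Marveld1 was 502.1 CPM in Tie1-CR replicate 4, below the other 4 Tie1-CR libraries. Rasip1 was 934.9 CPM in Tie1-WT replicate 3, the lowest of its group. Icam2 was 1254 CPM in Tie1-CR replicate 1, and Cdh13 was 47.64 CPM in Tie1-WT replicate 4, each the highest of its group.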

How the results depend on the processing

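Under 17 alternatives none of the 10 junction genes passed the threshold, and 9 of them kept their sign. Ocln changed sign without Tie1-WT replicate 3 (-0.00734 log2, limma adjusted p = 0.957), and its differences without single libraries ran from -0.00734 to 0.128 log2. The median difference of the 10 genes ran from 0.0553 to 0.102 log2 with single libraries left out and from 0.0621 to 0.0933 log2 under the other settings. Jup ran from 0.0873 to 0.209 log2, Tjp1 from -0.157 to -0.0555 and Pecam1 from 0.0245 to 0.117 with single libraries left out. The number of genes past the threshold, 376 (119 higher, 257 lower), fell to 60, 135 and 154 when Tie1-WT replicates 1, 2 and 3 were left out in turn. Leaving out Tie1-CR replicate 4 gave 183, and the range over all left-out libraries was 60 to 355. It was 17 (1 higher, 16 lower) with the epithelial covariate, and the cause was not tested. With TMM scaling it was 182 higher and 194 lower (51.6% lower against 68.4%), and with quantile normalization 183 and 190 (50.9% lower). With a replicate block 183 genes passed (38 higher, 145 lower), and 0 of the 10 junction genes. Deviations of same-numbered libraries correlated at -0.144, 0.00411, -0.0597 and 0.19 across genes (replicates 1 to 4). Only for replicate 4 was the same-numbered library the closest match. So few libraries cannot show whether the replicate numbers stand for a pairing. Marveld1 lost its call under the block (0.305 log2, limma adjusted p = 0.0888). Its settings were added after seeing the data. The planned count tests (edgeR and DESeq2) were not run, because the table lacks the low values on which recovered reads are checked. Each of the 10 genes had at least 5673 reads in every library.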

Other observations

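The ratio of Jup to Ctnnb1 within a library does not depend on the scaling of that library, and it was computed after the values of both genes had been seen. It was 3.80, 4.18, 3.36 and 4.02 in Tie1-WT replicates 1 to 4 and 4.96, 5.23, 4.18, 5.37 and 4.04 in Tie1-CR replicates 1 to 5, as a ratio of CPM values without correction for length. The means were 3.84 ± 0.354 (SD, n = 4) and 4.76 ± 0.613 (SD, n = 5), a log2 difference of 0.30. A two-sided exact permutation test over the 126 arrangements gave p = 0.0476 for this 1 ratio, where the smallest possible is 0.0079. The pair was picked for its opposite signs, so this p is a description of these libraries and no independent evidence. Tie1-CR replicate 5 lay within the range of Tie1-WT and the other 4 lay above it, replicate 3 by less than the digits shown.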
